A study of Homo sapiens with 15 samples.

Results

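Fibroblasts are the connective tissue cells that carry most of the supporting matrix of a tumor, and 10 genes that mark them were followed here across tumors: THBS2, DCN, BGN, PDGFRA, PDGFRB, FAP, TAGLN, ACTA2, LUM and FN1. These 10 genes, of 19483 named genes on the array, are read by 13 probes among 34127. They were selected on their measured levels in these same 15 tumors, which had been seen to differ between tumors and constructs, so their levels, differences and movement together are given below as a description. Where probes of these genes pass a threshold, the count stands only beside the share of all probes and supports nothing. The tumors were xenografts of HCT116, a human colon cancer cell line, grown in male athymic nude mice. Before injection the cells had been transfected transiently, as pools and not as single clones, with the empty vector pCDNA3 or with 1 of 4 constructs: Myc-tagged MOAP-1, MOAP-1 with the K264R change, MOAP-1 with the K278R change, or HA-tagged RASSF1A. MOAP-1 and RASSF1A are partner proteins in apoptosis signaling, and the changes replace a lysine of MOAP-1 with arginine. Each construct had 3 tumors, each hybridized to its own 1-color array, for 15 arrays in all. The labels do not say whether the tumors of a construct came from separate animals, so the spread between them may be partly technical.

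In a tumor, fibroblasts surround the cancer cells and the blood vessels, lay down collagens and proteoglycans, and become contractile when activated. Platelet-derived growth factors act on these cells through the receptors PDGFRA and PDGFRB, and the secreted proteins DCN, BGN, LUM, FN1 and THBS2 build or bind the matrix they make. In a xenograft of a cell line the fibroblasts come from the host animal, here a mouse, while the probes of this array were designed to human genes. How much of each signal came from mouse RNA and how much from human RNA was not measured, and fewer cells of a type and less RNA per cell cannot be told apart in a whole tumor.

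Levels, except the summed levels of lists, are the log2 of the background-corrected intensity minus the log2 of the same array's 75th percentile. On this scale 0 is the level of a probe at that percentile and a difference of 1 is a 2-fold change. The 75th percentile itself ran from 496 to 1402 intensity units and 85.1% to 93.1% of probes were well above background, the scanner software's call that a spot is brighter than its surroundings. No spot was saturated. The arrays lay on 5 slides. The 3 vector tumors shared a slide with RASSF1A tumor 3, MOAP-1 tumor 2 shared a slide with the 3 K278R tumors, MOAP-1 tumors 1 and 3 shared another, the K264R tumors filled a slide of their own, and RASSF1A tumors 1 and 2 were alone on a slide scanned on a later day. For MOAP-1, K264R and K278R the slide and the difference from vector therefore cannot be told apart. A probe was kept when every tumor of 1 construct or more gave a signal well above background, which held for 30585 probes and for 12 of the 13 probes of these genes. LUM was the exception, with its probe well above background in 0 of 15 tumors.

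In GRCh38.p14, the genes lie on 8 chromosomes: FAP at chr2:162170684-162243445 and FN1 at chr2:215360865-215436068, PDGFRA at chr4:54229293-54298245, PDGFRB at chr5:150113839-150155845, THBS2 at chr6:169215785-169253846, ACTA2 at chr10:88935074-88991337, TAGLN at chr11:117199294-117207465, LUM at chr12:91102629-91111494 and DCN at chr12:91140484-91182817, and BGN at chrX:153494980-153509546. RefSeq promoter entries were matched for 6 of the 10 genes, with 8 promoters. Shown here are the 250 bases before the start of THBS2 and PDGFRB, the pair whose levels moved together most closely, and of FN1, which had the lowest median correlation with the others over the 15 tumors. All 3 windows lie on the minus strand and are written 5′ to 3′, with the letters TATAA in capitals.
THBS2 (chr6:169253847-169254096): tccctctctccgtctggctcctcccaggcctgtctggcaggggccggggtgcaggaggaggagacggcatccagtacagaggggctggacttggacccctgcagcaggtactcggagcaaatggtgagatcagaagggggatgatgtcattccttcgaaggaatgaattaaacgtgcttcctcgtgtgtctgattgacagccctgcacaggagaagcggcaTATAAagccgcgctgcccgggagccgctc
PDGFRB (chr5:150155846-150156095): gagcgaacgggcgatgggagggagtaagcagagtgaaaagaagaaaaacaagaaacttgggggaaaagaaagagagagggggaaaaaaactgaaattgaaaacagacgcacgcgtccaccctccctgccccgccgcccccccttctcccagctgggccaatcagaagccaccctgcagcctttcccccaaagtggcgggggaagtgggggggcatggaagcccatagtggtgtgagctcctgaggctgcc
FN1 (chr2:215436069-215436318): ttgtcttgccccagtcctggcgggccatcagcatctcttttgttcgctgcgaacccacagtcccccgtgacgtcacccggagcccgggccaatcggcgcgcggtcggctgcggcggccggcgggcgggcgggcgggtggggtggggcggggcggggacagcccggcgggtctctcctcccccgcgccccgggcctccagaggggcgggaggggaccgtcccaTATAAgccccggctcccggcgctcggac
The letters TATAA, searched on both strands, lay 29 bases before the start of THBS2 and 28 before that of FN1 and were not in the PDGFRB window. Among the 6 genes 4 had them, with PDGFRA and ACTA2 the others, beside 18.9% of 35116 promoter windows of the same length. The CArG box, bound by the serum response factor and a textbook element of smooth muscle genes, was searched only in its strict form. That form, CC, then 6 bases of A or T, then GG, was in 0 of the 8 promoters and in 1.16% of all windows. Near matches, such as ccctatatgg in an ACTA2 window, were not counted, and TAGLN had no matched promoter. Absence of the element from these genes is therefore not shown.

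The receptors PDGFRA and PDGFRB were among the genes that followed the others most closely. PDGFRA, a receptor tyrosine kinase of mesenchymal cells, was at -3.26, -3.87 and -6.07 in vector tumors 1 to 3 and at -4.06, -0.94 and -1.81 in the MOAP-1 tumors. It was at -4.07, -2.81 and -4.07 with K264R, at -3.55, -1.66 and -2.81 with K278R, and at -3.96, -3.35 and -4.11 with RASSF1A. MOAP-1 tumors 2 and 3 and K278R tumor 2 stood above the rest, vector tumor 3 stood below, and MOAP-1 tumor 1 lay among the vector tumors. The whole range was 35.1-fold, and 41.5% of the variance of PDGFRA lay between constructs.

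PDGFRB, the receptor that also marks the pericytes around vessels, was at -6.38, -5.79 and -6.75 in the vector tumors, where 2 of 3 were well above background, and at -5.45, -4.51 and -4.96 in the K278R tumors. The MOAP-1 tumors were at -6.28, -4.72 and -4.72, the K264R tumors at -6.44, -5.13 and -6.04, and the RASSF1A tumors at -6.05, -5.68 and -5.91. Every K278R tumor was above every vector tumor, and the mean difference was 1.34 ± 0.43 (SE, 3 tumors each), or 2.52-fold. That direction depended on the background correction: it was -1.25 with normexp, a model of background noise, and -0.02 with normexp after 18 spots with an extreme local background were left out. Normexp also moved the median K278R difference over all probes to -0.46.

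FAP, a cell-surface protease of activated fibroblasts, was at -3.99, -3.13 and -5.94 in the vector tumors and at -5.30, -3.27 and -3.24 in the MOAP-1 tumors. With K264R it was at -5.45, -4.03 and -4.92, with K278R at -4.15, -2.38 and -3.66, and with RASSF1A at -4.27, -3.25 and -4.26. Its 11.8-fold range lay mostly inside constructs, with 24.2% of the variance between them, and all groups overlapped the vector tumors.

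**Figure D1:**
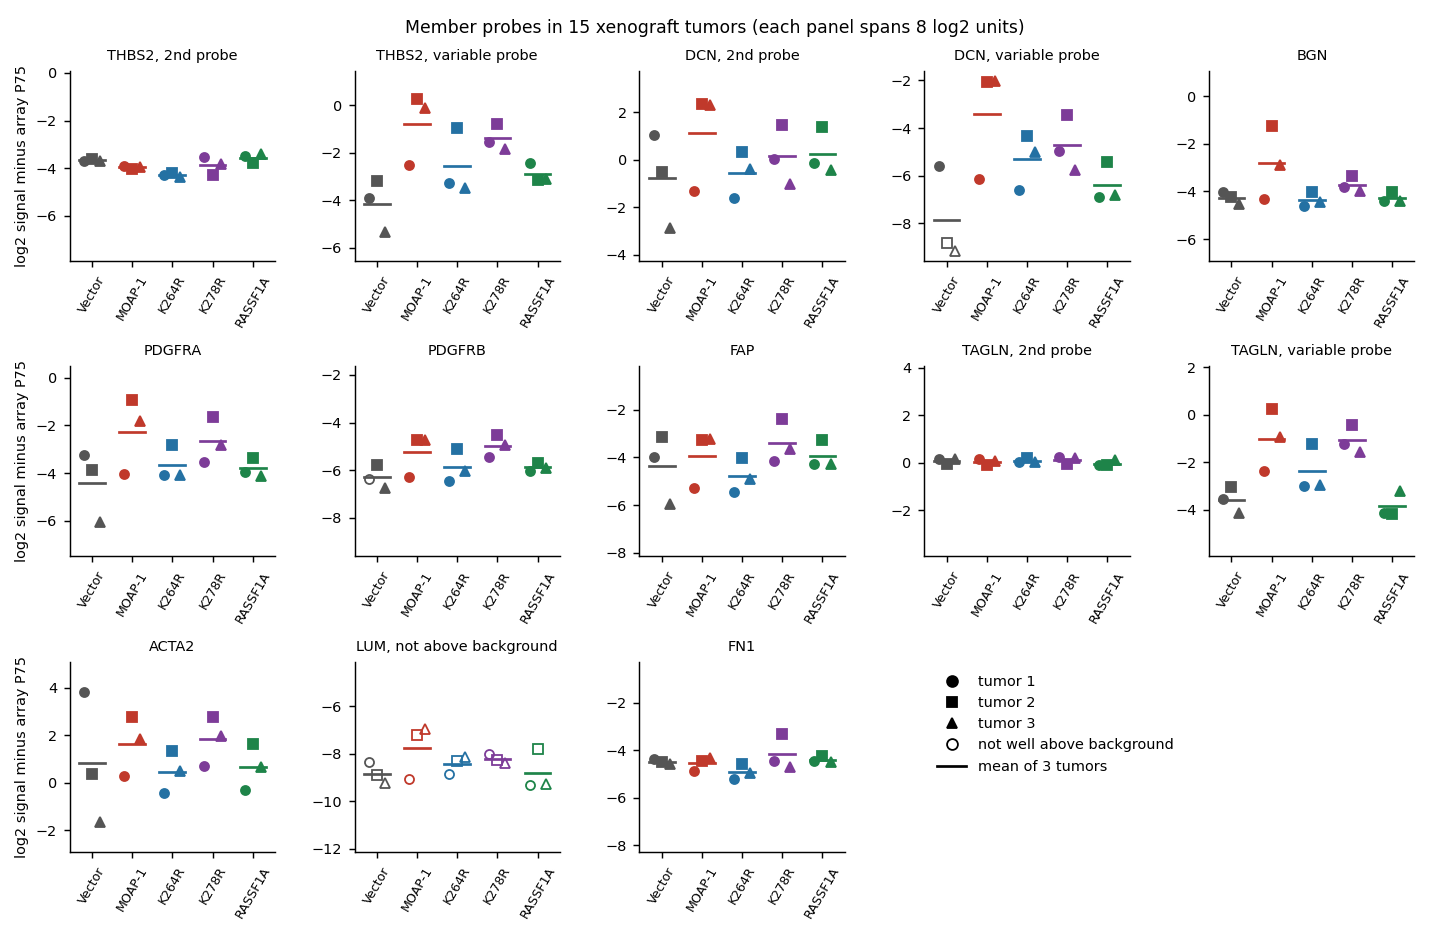
Level of each gene in every tumor, on the log2 scale relative to the 75th percentile of the same array (y axis, 8 log2 units in every panel), with the 5 constructs along the x axis, 1 symbol per tumor, open where the probe was not well above background, and a line at the mean of 3 tumors. MOAP-1 tumors 2 and 3 and K278R tumor 2 sit at or near the top of most panels, while MOAP-1 tumor 1 sits within or close to the vector tumors.

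Among the matrix genes, THBS2 gave the widest difference between constructs that did not overlap. THBS2, a secreted thrombospondin of the matrix, was at -3.93, -3.17 and -5.35 in the vector tumors and at -2.52, 0.25 and -0.11 in the MOAP-1 tumors by its more variable probe (A_33_P3365735). On the same probe the K264R tumors were at -3.28, -0.96 and -3.47, the K278R tumors at -1.57, -0.78 and -1.85, and the RASSF1A tumors at -2.45, -3.14 and -3.09. All MOAP-1, K278R and RASSF1A tumors lay above all vector tumors, and K264R overlapped them. The mean difference from vector was 3.36 ± 0.78 (SE, 3 tumors each; 10.2-fold) for MOAP-1 and 2.75 ± 0.78 (6.73-fold) for K278R. With normexp these differences shrank to 1.00 and 0.46 on the log2 scale, and to 1.94 and 1.40 without the extreme spots. The other THBS2 probe (A_33_P3227375) behaved differently: it stayed between -4.38 and -3.42 in all tumors, its correlation with the more variable probe was r = -0.30 over 15 tumors, and with K264R it was 1.53-fold below vector with no overlap (-0.61 ± 0.16).

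Decorin, DCN, a small proteoglycan that binds collagen fibrils, had 2 probes that followed each other (r = 0.83 over 15 tumors). By the less variable (A_23_P64873) it was at 1.06, -0.50 and -2.87 in the vector tumors, at -1.29, 2.37 and 2.31 in the MOAP-1 tumors and at -1.62, 0.31 and -0.37 in the K264R tumors. The K278R tumors were at 0.04, 1.47 and -1.0 and the RASSF1A tumors at -0.15, 1.36 and -0.44. The vector tumors alone were spread from 1.06 to -2.87, and MOAP-1 tumor 1 lay inside that range while its 2 companions lay above it. The more variable probe (A_33_P3382856) was well above background in 1 of 3 vector tumors, at -5.61, and its readings of -8.85 and -9.15 in the other two were not. The highest was -2.02, in MOAP-1 tumor 3. The MOAP-1 mean was 4.46 ± 1.14 (SE, 3 tumors each) above vector, a difference that rests on those 2 dim readings and whose groups overlapped, and with normexp that difference was -0.40, against a median of -0.53 over all probes.

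BGN, or biglycan, the close relative of DCN, was at -4.03, -4.24 and -4.54 in the vector tumors and at -4.30, -1.23 and -2.88 in the MOAP-1 tumors. The K264R tumors were at -4.61, -4.01 and -4.43, the K278R tumors at -3.82, -3.35 and -4.00, and the RASSF1A tumors at -4.38, -4.01 and -4.39. Apart from MOAP-1 tumors 2 and 3, the levels ran only from -4.61 to -3.35. The MOAP-1 mean was 1.47 ± 0.53 (SE, 3 tumors each) above vector with overlapping tumors, and -0.37 with normexp.

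FN1, fibronectin, the adhesive glycoprotein that integrins bind, was the flattest matrix gene that could be measured. It ran from -5.21 in K264R tumor 1 to -3.33 in K278R tumor 2, a 3.68-fold range, and the next highest tumor was at -4.25. LUM, the proteoglycan lumican, gave readings between -9.32 and -6.94 that were not well above background in any tumor, so no level is compared.

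Both contractile genes varied, in different ways. TAGLN, transgelin, an actin-binding protein of smooth muscle and activated fibroblasts, was at -3.55, -3.03 and -4.14 in the vector tumors, at -2.34, 0.24 and -0.93 in the MOAP-1 tumors and at -1.23, -0.43 and -1.57 in the K278R tumors by one probe (A_23_P87013). The K264R tumors were at -2.98, -1.22 and -2.93 and the RASSF1A tumors at -4.11, -4.15 and -3.20. No MOAP-1, K264R or K278R tumor overlapped the vector tumors, and 74.6% of the variance lay between constructs. The differences from vector were 2.57 ± 0.61 (SE, 3 tumors each; 5.92-fold) for MOAP-1, 1.20 for K264R, 2.50 (5.65-fold) for K278R and -0.25 for RASSF1A. With normexp they were 0.91 for MOAP-1, -0.05 for K264R and 0.82 for K278R. The other TAGLN probe (A_23_P87011) covered a range of 1.28-fold over all 15 tumors, and its correlation with the first was r = 0.10.

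ACTA2, smooth muscle actin, the usual marker of contractile fibroblasts, was at 3.83, 0.36 and -1.64 in the vector tumors and at 0.29, 2.77 and 1.84 in the MOAP-1 tumors. It was at -0.41, 1.32 and 0.52 with K264R, at 0.73, 2.77 and 1.99 with K278R, and at -0.29, 1.63 and 0.65 with RASSF1A. Both the highest and the lowest of the 15 tumors were vector tumors, 44.1-fold apart on 1 slide, and 15.5% of the variance lay between constructs. Vector tumor 1 also carried the highest levels of 3 skeletal muscle genes, at 4.06 for MYH2, 2.58 for MYL1 and 1.50 for TNNT3, whereas MYH2 lay between -4.05 and 2.98 in the other tumors. The muscle genes CKM and ACTA1 did not peak there, at -3.66 and -4.32 in vector tumor 1. CKM was highest in K264R tumor 3 (-2.59) and ACTA1 in K278R tumor 1 (-4.08). Over 15 tumors that share the array scaling, ACTA2 had r = 0.52 with MYH2, 0.48 with MYL1 and 0.62 with TNNT3, and within constructs 0.80, 0.68 and 0.83. The part of muscle RNA in the ACTA2 level was not tested.

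For 9 of these genes, each by its most variable kept probe, the levels were then set against one another over the 15 tumors. Every one of the 36 pairs of these chosen probes correlated positively, with a median Pearson r of 0.74 (range 0.32 to 0.90) and a median Spearman rho of 0.73. The points share the tumor, the array and its scaling, and the genes had been picked for varying, so the correlations carry no p-value. With the construct means subtracted, so that tumors were compared only with others of their own construct, all 36 stayed positive and the median was 0.71 (range 0.50 to 0.92). For each pair the 2 tumors farthest from the median of its first gene, in the order listed at the start, were also left out. The median r was then 0.70, and it was between 0.70 and 0.79 when each tumor was left out in turn.

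THBS2 and PDGFRB, whose promoter windows are printed above, formed the closest pair over tumors (r = 0.90, and 0.89 within constructs), and PDGFRA and FAP were the closest within constructs (0.92). PDGFRA had the highest median correlation with the other 8 genes, at 0.82, followed by THBS2 (0.81), PDGFRB (0.79), DCN (0.77), TAGLN (0.77), BGN (0.74) and FAP (0.68). ACTA2 was at 0.60, and at 0.82 without vector tumor 1. FN1 was the lowest at 0.44, whereas within constructs ACTA2 (0.57) was below FN1 (0.63). Over the tumors the pair of FN1 with TAGLN was the lowest of all (r = 0.32), falling to -0.06 without the 2 tumors farthest from the median of TAGLN.

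**Figure D2:**
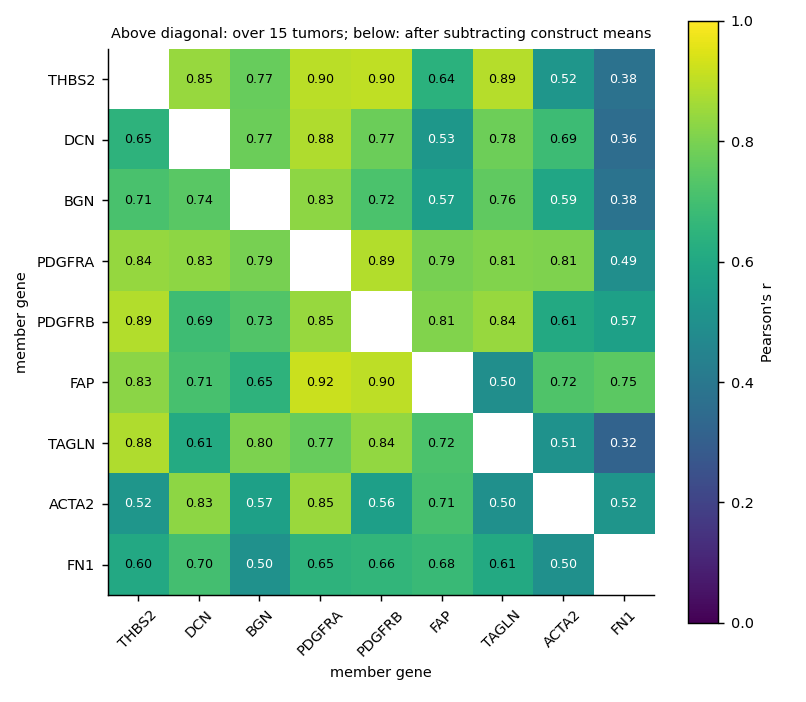
Pearson r between the levels of each pair of genes, over 15 tumors above the diagonal and after subtracting the construct means below it, with the color scale giving r. All 36 pairs are above 0 in both, from 0.32 to 0.90 over tumors and from 0.50 to 0.92 within constructs, and the weakest cells over tumors are those of FN1.

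Which tumors were high was largely shared between genes. With each gene's levels standardized to mean 0 and SD 1 over the 15 tumors and averaged over the 9 genes, the mean was 1.52 in MOAP-1 tumor 2, 1.42 in K278R tumor 2 and 1.08 in MOAP-1 tumor 3. K278R tumor 2 was among the top 3 tumors for 9 of 9 genes, MOAP-1 tumor 3 for 8 and MOAP-1 tumor 2 for 7. MOAP-1 tumor 1, at -0.55, was among the top 3 for 0. At the other end vector tumor 3 was at -1.50 and among the bottom 3 for 8 genes, followed by K264R tumor 1 at -0.92. The tumors of a construct also differed widely among themselves. MOAP-1 tumor 3 was higher than MOAP-1 tumor 1, on the same slide, for 9 of 9 genes, with a median of 1.57 and a difference of 4.11 (17.3-fold) for DCN. Between the highest and lowest vector tumors, also on 1 slide, the median gap was 2.18 and that of ACTA2 5.46.

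**Figure D3:**
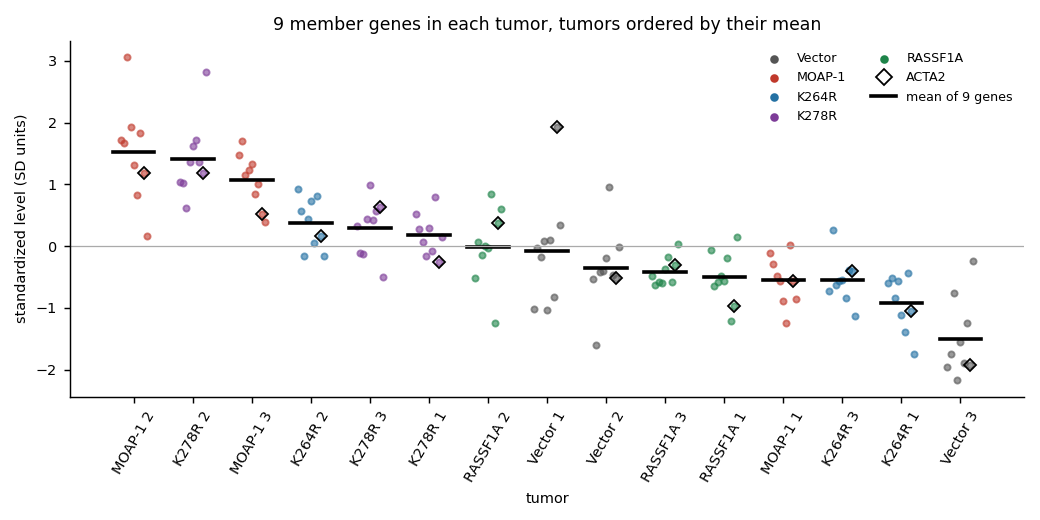
Standardized level of each of the 9 genes in every tumor (y axis, SD units over 15 tumors, points colored by construct, ACTA2 as diamonds) and their mean (line), with the tumors ordered by that mean. The means run from -1.50 in vector tumor 3 to 1.52 in MOAP-1 tumor 2, and MOAP-1 tumor 1 lies at -0.55 apart from the other MOAP-1 tumors.

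The mean over these genes did not track the overall brightness of the arrays closely, with r = -0.20 (rho = -0.19) against the 75th percentile and r = 0.17 (rho = 0.30) against the share of probes well above background, over 15 tumors. Across 30473 kept probes with a value on every array the median r with this mean was 0.10, and 968 of them (3.18%) exceeded 0.8. The positive correlations depend on the choice of the most variable probe. The less variable probes of THBS2 and TAGLN had r = -0.29 and -0.21 with this mean, and that of DCN had 0.87.

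Against vector, the counts of probes past the usual threshold were small, and the 4 contrasts share the vector tumors. A probe was called when limma gave an adjusted p below 0.05 over all kept probes and the difference was at least 1.5-fold. With MOAP-1, 4 of the 12 kept probes were called, 1 each of THBS2, DCN, BGN and TAGLN, all higher, beside 16.6% of all kept probes. With K278R, 3 were called, THBS2, PDGFRB and TAGLN, each higher, beside 10.9%. With K264R, the flat THBS2 probe alone was called, lower, beside 19.5%. With RASSF1A, limma called 0, beside 0% of all probes, with 3695 of them at an unadjusted p below 0.05, and the methods' t-test also called 0 of the 12. Because the genes were chosen for these differences, nothing is read from their share.

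The counts changed with single tumors and with the processing, although some calls held whichever tumor was left out. Of 26 alternatives, the TAGLN calls and the THBS2 call with MOAP-1 held in 24 each, among them all 15 fits that left out a tumor. The THBS2 call with K264R held in 23 (14 of those 15 fits), the DCN call in 20 (14) and the THBS2 call with K278R in 18 (10). The BGN call held in 5, among them 1 of the 15 fits that left out a tumor, and was lost also with quantile normalization, with no filter and in a fit of only the 2 constructs. The PDGFRB call held in 11 and was lost with quantile normalization, with either other filter and in 8 of the 15 fits without a tumor. For MOAP-1 the count was 7 without MOAP-1 tumor 1 and 2 without MOAP-1 tumor 2. For K278R it was 1 without K278R tumor 2, without K278R tumor 3 or without vector tumor 3, and for K264R it was 0 without K264R tumor 3 and 2 without MOAP-1 tumor 1 or vector tumor 1. With normexp it was 0 for all 4 contrasts, and of the 29 differences that were above 0 among 36, over 9 genes and 4 contrasts, 23 turned below 0. Of all probes called with K278R, 70.7% were higher, and 54.6% were after quantile normalization.

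Over the 12 kept probes the median difference from vector was 1.27 for MOAP-1, 0.97 for K278R, 0.26 for RASSF1A and 0.10 for K264R, where the medians over all probes were 0.02, 0.06, 0.02 and -0.05. The groups did not overlap for 3 of the 12 probes with MOAP-1, beside 48.6% of all kept probes, for 4 with K278R beside 37.3%, for 2 with K264R beside 52.8% and for 1 with RASSF1A beside 14.8%, and in the MOAP-1 and K264R counts the less variable THBS2 probe stood below vector. The highest construct mean was that of MOAP-1 for 5 genes and K278R for 4, and the lowest was that of vector for 4, K264R for 4 and RASSF1A for 1. Neighbors in this order mostly overlapped: among the most variable probes the groups stood apart only between RASSF1A and vector for THBS2, between K278R and RASSF1A for BGN, and between K264R and vector for TAGLN.

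**Figure D4:**
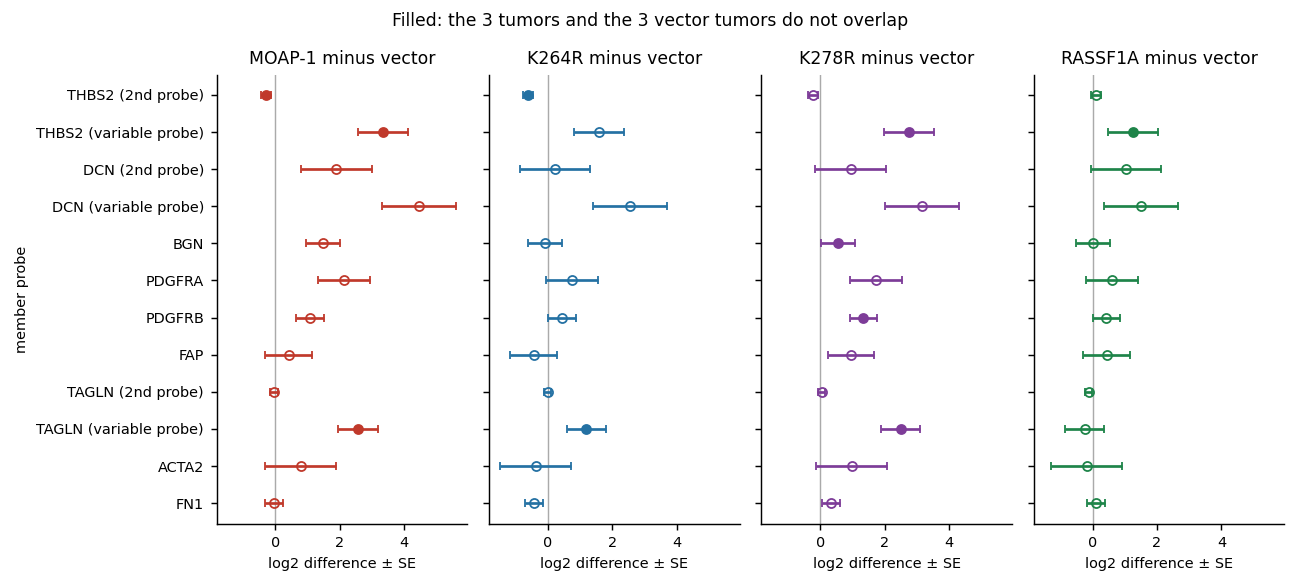
Difference of each construct's mean from the vector mean for the 12 kept probes, on the log2 scale, with bars of 1 SE from the limma fit over 15 tumors and filled points where the tumors do not overlap the vector tumors. The MOAP-1 and K278R points lie mostly to the right of 0, up to 4.46 for a DCN probe with MOAP-1, while the less variable probe of THBS2 goes no lower than -0.61.

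Slides that held more than 1 construct allowed a few comparisons free of the slide. On the slide it shared with the K278R tumors, MOAP-1 tumor 2 was above all 3 of them for THBS2 (by 1.65 over their mean), DCN (2.65), BGN (2.49), PDGFRA (1.73) and TAGLN (1.32). It was not above all of them for PDGFRB (0.25), FAP (0.13), ACTA2 (0.94) or FN1 (-0.27). RASSF1A tumor 3, on the vector slide, exceeded the vector mean by 1.06 for THBS2, 0.29 for PDGFRA and 0.37 for TAGLN, and differed by -0.11 for BGN and -0.20 for ACTA2. With 1 tumor on a side these values have no test.

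Other genes of the same compartment were examined next to see how widely the pattern was shared. Of 36 further fibroblast and matrix genes, 31 had a kept probe, and COL6A3, POSTN, FBN1, OGN and PRRX1 had none. For 7 of the 31 at least 1 probe was called against vector in any contrast, beside 24.4% of all kept probes, a share of probes and not of genes. The 39 kept probes of the list had a median r of 0.67 with the mean of the 9 genes, 12 of them above 0.8. The count of called genes was 16 without MOAP-1 tumor 1 and 2 with normexp. By contrast with vector, 5 genes were called higher and 2 lower for MOAP-1 (median difference 0.36), 4 higher and 2 lower for K278R (0.36), 2 higher and 3 lower for K264R (0.02), and 0 for RASSF1A (2 of 39 probes at an unadjusted p below 0.05). Some genes are counted both ways because their probes disagree.

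COL1A1, the main collagen of connective tissue, was at 1.79, 1.96 and 0.57 in the vector tumors and at 1.99, 4.74 and 4.30 in the MOAP-1 tumors, and it rose by 2.24 ± 0.76 (SE, 3 tumors each; limma adjusted p = 0.041). Again MOAP-1 tumor 1 lay close to the vector tumors, and over 15 tumors COL1A1 had r = 0.94 with the mean of the 9 genes. COL3A1, which accompanies it, had the same r of 0.94 and a difference of 1.80 that did not pass (limma adjusted p = 0.070). Its probe was well above background in 1 of 3 vector tumors. COL5A1, a minor fibrillar collagen, rose by 3.15 with MOAP-1 (limma adjusted p = 0.0095) and by 2.88 with K278R (0.023) on a probe with r = 0.92, and fell by 1.82 with MOAP-1 (0.00092) on another with r = -0.28. The latter probe was also called lower with K264R (-1.98) and K278R (-1.56). ELN, elastin, also split between probes, one lower by limma with MOAP-1 at -1.15 (adjusted p = 0.00026) and one higher at 0.75 (0.017). The lower ELN probe was called with K264R (-1.03) and K278R (-0.62) as well. SPARC, an abundant matrix glycoprotein, had r = -0.21 and a difference of -0.37, short of 1.5-fold (limma adjusted p = 0.039). The highest correlations of the list were those of LOX, the enzyme that cross-links collagen (0.97), SERPINF1 (0.95) and COL1A2 (0.95), chosen after their values were seen. The lowest, chosen in the same way, were those of COL6A1 (-0.62) and TIMP2 (-0.51). Set against the label, the fibrillar collagens COL1A1 and COL3A1 thus followed the 9 genes, SPARC, COL6A1 and TIMP2 did not, and POSTN and COL6A3 were too dim to be kept.

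**Figure D5:**
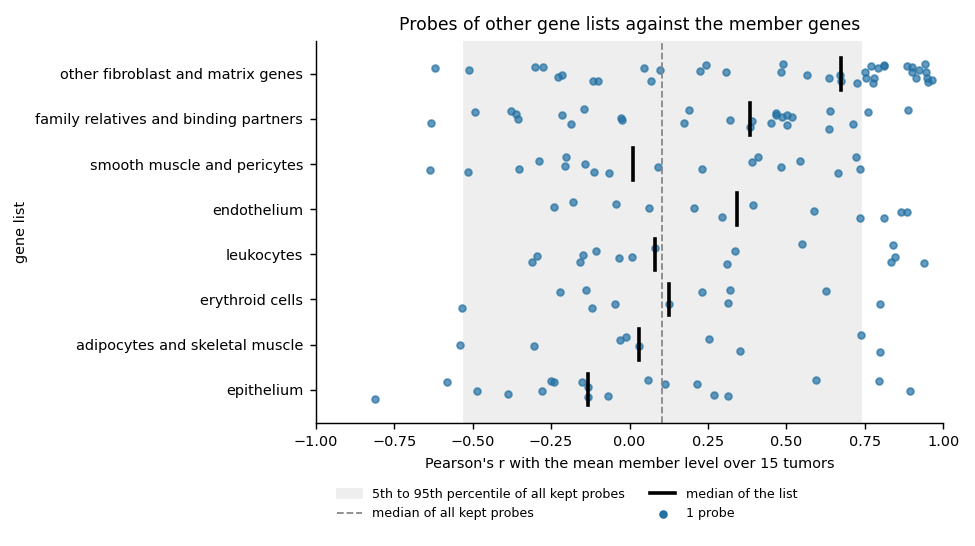
Pearson r over 15 tumors between each kept probe of a gene list and the mean standardized level of the 9 genes (x axis), 1 point per probe, with the median of each list as a line, the median of all kept probes dashed and the span that leaves out their lowest and highest tails (-0.53 to 0.74) shaded. The other fibroblast and matrix genes have a median of 0.67, and the smooth muscle and epithelial lists have medians of 0.01 and -0.13.

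Lists for the other cells that a tumor can hold had lower median correlations with these genes, although single genes in several of them followed as closely. Each count of called genes in these lists stands beside the 24.4% of all kept probes called in any contrast. That share is of probes and not of genes, and nothing is read from the counts. Among the 27 relatives and binding partners of the 10 genes 23 had kept probes, 6 were called and the median r was 0.38. ACTB, cytoplasmic actin, was called at 1.50 with MOAP-1 by one probe (limma adjusted p = 0.0002) and not by the other (0.02 log2 units, adjusted p = 0.93). The former ACTB probe was also called with K264R (1.50) and K278R (1.27). TAGLN2 and TAGLN3, relatives of TAGLN, rose with K278R by 1.27 and 0.93 (limma adjusted p = 0.026 and 0.040). TAGLN2 was called higher with MOAP-1 (1.19) and K264R (1.18) as well. Of 15 smooth muscle and pericyte genes, all with kept probes, 4 were called and the median r was 0.01. MYL9, a myosin light chain, rose with MOAP-1 by 1.15 (limma adjusted p = 0.0044), while CNN1 fell with K264R by 0.91 (0.0032) and DES fell by 0.75 (0.0084). MYL9 was called higher with K264R (0.70) and K278R (0.99) too. MYH11, the defining myosin of smooth muscle, was well above background in 9 of 15 tumors with r = 0.09. The summed level of this list, on a linear scale, was 34.6 to 37.2 in the vector tumors and 29.6 to 32.1 in the MOAP-1 tumors. That sum is weighted to bright probes such as those of TPM2 (log2 means of 3.79 and 2.75 with vector). The kept probes of MYH11 (-7.08) and CNN1 (-4.88) add little to it.

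Endothelial genes had kept probes for 12 of 14, with 2 called, beside the same 24.4% of probes, and a median r of 0.34. TIE1, a vessel receptor, rose with MOAP-1 by 2.37 (limma adjusted p = 0.019) from a vector group in which 1 of 3 tumors was well above background, and PLVAP fell with K264R by 1.35 (0.0019). TIE1 was also called with K278R (2.31) and PLVAP with MOAP-1 (-1.0). PECAM1 and CDH5, the defining markers, had r of 0.39 and 0.29, while TIE1 had 0.86 and, named after their values were seen, EMCN had 0.88, KDR 0.81 and CLDN5 0.74. The PECAM1 value comes from its only kept probe, which was at 0.12 in K264R tumor 2 and averaged -2.87 over the 15 tumors. Its other probes were well above background in 0 and 2 of 15 tumors. The list's summed level, again linear, was 5.11 to 5.43 with vector and 5.06 to 5.58 with MOAP-1. Leukocyte genes had kept probes for 12 of 14, with AIF1 and LYZ not on the array, 4 called and a median r of 0.08. C1QA, a complement component of macrophages, rose with MOAP-1 by 1.03 (limma adjusted p = 0.0047) and had r = 0.84, whereas TYROBP fell by 1.70 (0.00034), C1QC fell with K264R by 0.74 (0.0020), CD68 had r = -0.11, and the 4 probes of PTPRC ran from -0.30 to 0.85. With K264R and K278R, C1QA was also called (0.65 and 0.88), as was TYROBP (-1.65 and -1.34). The highest r of the list was that of C1QB (0.94), named after its value was seen.

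Epithelial genes, listed for the cancer cells, had 16 of 16 with kept probes, 2 called, beside the same 24.4% of probes, and a median r of -0.13. EPCAM, the epithelial adhesion molecule, lay between 4.39 and 5.10 and had r = -0.81 over 15 tumors (-0.67 within constructs). In the same list TSPAN8 (0.89) and VIL1 (0.79), named after their values were seen, went the other way. Both were at much lower levels than EPCAM, with means of -4.57 and -3.52 over the 15 tumors. One KRT8 probe had r = 0.06 and the other rose with MOAP-1 by 1.07 (limma adjusted p = 0.012), and CLDN3 fell with K264R by 0.63 (0.021). The latter KRT8 probe was called with K264R too (0.97). Erythroid genes had 6 of 7 with kept probes and 0 called by limma (8 of 11 probes at an unadjusted p below 0.05 in some contrast), and HBB had r = 0.63, with HBA1 not on the array. The list of adipocyte and skeletal muscle genes had 8 of 10 with kept probes and 0 called by limma (2 of 9 probes at an unadjusted p below 0.05). Its summed linear level was 0.87 to 26.2 in the vector tumors, 1.05 to 10.1 in the RASSF1A tumors and at most 2.55 in the others. The part of these other cells in the levels of the 9 genes was not tested.

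Over the kept probes with a value in every tumor, the genes whose levels were most like each member's were listed by Pearson r over the 15 tumors. THBS2 was nearest to COL5A1 (0.98) and CCN4 (0.96), and TAGLN to LOXL1 (0.98) and MARCHF3 (0.98). PDGFRA was nearest to CCDC80 (0.97) and PPBP (0.97), PDGFRB to ACKR3 (0.97) and IL25 (0.97), and FAP to SBSPON (0.97) and GML (0.96). For BGN the nearest were ELN (0.93) and SOD2 (0.93), and for DCN NPL (0.91) and ORM2 (0.91). ACTA2 was nearest to ACTRT1 (0.99) and TEAD2 (0.98), and FN1 to FAM66D (0.99) and ADGRA3 (0.96). These names, the highest among 30473 probes, are a description with no test.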

How the data were processed

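RNA of 15 xenograft tumors had been hybridized to Agilent 1-color human arrays. Per the labels the submitters extracted the features with Agilent Feature Extraction 9.1, and the file headers name 10.5.1.1. The deposited intensity values are the background-corrected signal (processed signal) of each spot, on a linear scale. The deposited log2 table of the series is centered, and of its 15 columns 8 followed the array of their own label and 7 that of another tumor of the same construct, so it served only as an alternative.

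Control spots were left out, spots of a probe were averaged, and log2 intensity minus the log2 of each array's 75th percentile was taken. Probes were named through RefSeq accessions in the array design (25422 of 34127, 74.5%). Of 34127 probes, 30585 were kept. The differences between constructs come from limma 3.58.1 under R 4.3.3 (lmFit and eBayes, construct only, 15 arrays, 10 residual degrees of freedom) with Benjamini-Hochberg adjustment, and correlations and figures were made in Python 3.11.15 with pandas 2.3.3, numpy 2.4.6 and matplotlib 3.10.9. The fit was checked on data with known changes in 200 probes. The number of arrays limits the precision.

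The 10 genes and all gene lists were chosen with earlier results of these data known. Named in the text were every probe of the 10 genes, the 2 genes nearest to each in r, defining markers of each list, and the 3 genes of each list with the largest difference among those called. The alternatives were quantile normalization, normexp with offset 50 (on the median signal, the column used here, in place of the mean signal that had been planned), other filters on dim probes, the deposited table, slide and replicate number as blocks, fewer constructs in the fit, the methods' t-test and leaving out each tumor. Leaving out a tumor keeps the shared spread of all constructs.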

Additional observations from a re-analysis of the deposited data

How the results depend on the processing

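Of the counts of called probes of these genes, those for MOAP-1 and K278R changed most with the background correction. With normexp the counts were 0 for MOAP-1, K264R and K278R, and without the spots of extreme background they were 2, 3 and 1. The methods' t-test called 2 for MOAP-1 unadjusted, 0 for MOAP-1 adjusted and 0 for K278R adjusted. The submitters' log2 table called 0 for K264R. Leaving out each tumor gave 2 to 7 for MOAP-1, 0 to 2 for K264R and 1 to 4 for K278R. The 7 other fibroblast and matrix genes called became 2 with normexp, 11 without its extreme spots, 11 with the slide as a random block, 13 with the replicate block, and 5 to 16 without each tumor. The median correlation within constructs was 0.92 with normexp. Of 36 differences, 29 were above 0, and 23 of these turned below 0 with normexp and 11 without its extreme spots, against 0 with quantile normalization. Among those of called probes the turned ones were DCN with MOAP-1 (-0.40), BGN with MOAP-1 (-0.37) and PDGFRB with K278R (-1.25, and -0.016 without the extreme spots). Normexp also moved the median over all probes to -0.53 for MOAP-1, -0.31 for K264R, -0.46 for K278R and -0.52 for RASSF1A, and the share of calls that were higher from 59.7% to 49% for MOAP-1 and from 47.6% to 28.7% for K264R. The causes were not tested. Of 171 recomputed counts and median correlations, 147 stayed close to the value reported (a count within 1.5 times of it, which can still lose a call, or a correlation within the spread of the pairs) and 24 did not. Those 147 include the RASSF1A counts, which were 0 in every setting, beside 0% of all probes in most of them. They also include fits without a tumor of a construct outside the contrast, so the total says little about stability. The replicate numbers pair no tumors by their labels, and 30 pairs of tumors with the same number had r from -0.25 to 0.37 in their deviations (above 0.1 for 4 of 10 pairs of number 1, 9 of 10 of number 2 and 2 of 10 of number 3), and 9 of 15 tumors correlated best with their own number. Tumor 2 had the highest mean of the 9 genes in 4 of 5 constructs. With the replicate block the calls were 6, 1, 3 and 0, with PDGFRA and PDGFRB added for MOAP-1. The human probes, the absence of a measure of mouse RNA, 3 tumors per construct and dim probes (LUM in all tumors, DCN and PDGFRB in some vector tumors) limit what these levels can show.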
